A study of Mus musculus with 7 samples.

Results

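The Hox cluster genes are the homeobox genes that lie side by side in 4 clusters, named Hoxa to Hoxd, and carry a paralogue number between 1 and 13. Members were taken as every gene name made of Hox, a cluster letter and a number. The first count table listed 39 of them among its 24394 genes, and the second, a shorter table of 13236 genes, listed 26. The 13 members listed in the first table alone were Hoxa6, Hoxa11, Hoxa13, Hoxb1, Hoxb13, Hoxc11, Hoxc12, Hoxc13, Hoxd1, Hoxd3, Hoxd11, Hoxd12 and Hoxd13.

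The data are counts of 3' mRNA tags from 7 libraries of cells sorted from female BALB/c mice, each group being 1 library. The first table held cancer-associated fibroblasts positive for podoplanin (pCAF), cancer-associated fibroblasts negative for it (sCAF) and stroma of the normal mammary fat pad (NMF). All of these were negative for Ter119, CD45 and EpCAM, which mark erythroid cells, leukocytes and epithelial cells. The pCAF and sCAF cells came from tumours that 4T1-luc cells had formed in the fat pad, and the NMF cells came from uninjected mice. The second table held GFP+ EpCAM+, GFP+ EpCAM-, GFP- EpCAM+ and GFP- EpCAM- cells, negative for Ter119 and CD45, from tumours of 4T1-GFP cells. 4T1 is a single mouse mammary carcinoma line, and the host keeps its own stroma and immune cells. Tumours arose from 100000 injected cells. They were collected at 4 weeks, when the mice were 12 weeks old, while NMF mice were 8 weeks old. Tumour was digested with collagenase A and fat pad with collagenases II and IV, so digestion, age and condition cannot be told apart in a comparison with NMF. The labels do not give how many mice were used for a library.

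With 1 library a group there was no spread between samples, no test and no p-value. Ratios below are of counts scaled by effective library size within a table. Their exact 95% interval covers counting error only and takes each count as a separate molecule. A member was called higher or lower when it had at least 20 counts over the compared libraries and its whole interval lay beyond 2-fold. Where a library had none, 3 counts stood in for it and the ratio, a bound, is written with "at least". Such a bound takes no account of counting error in the library that had counts. Levels are in counts and in normalised CPM, which is counts scaled to a common library size. As each transcript gives a tag at its 3' end, they were not divided by transcript length.

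Hox proteins are transcription factors that bind DNA through a homeodomain and give cells their position along the body axis. Within a cluster, genes with low numbers are used towards the head and those with high numbers towards the tail and the ends of the limbs. Adult fibroblasts are known to keep a Hox pattern that reflects the site they came from, and Hoxa9, Hoxb9 and Hoxd9 together are known to be needed for mammary gland growth in the pregnant mouse. In the GENCODE annotation of GRCm38 the 11 Hoxa members lie on the minus strand of chromosome 6. The other clusters lie on the plus strand, the 10 Hoxb members at chr11:96194316-96368256, the 9 Hoxc members at chr15:102921103-103036852 and the 9 Hoxd members at chr2:74668310-74765142.

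Library totals ran between 436051 counts in pCAF and 2590144 in sCAF. Taking 3 counts as the limit, a count of 0 allowed up to 7.48 CPM in pCAF, 1.13 CPM in sCAF and 2.44 CPM in NMF, and between 1.21 and 2.33 CPM in the second table. The library labelled sCAF went against its label. Its 8 fibroblast markers summed to 229 CPM, with Lum at 0, against 61790 CPM in pCAF and 37168 CPM in NMF. Pdpn was at 0 too, but that goes with the label, as these cells were sorted as negative for podoplanin. The 7 epithelial markers summed to 3956 CPM in sCAF, against 67.3 CPM in pCAF and 61.7 CPM in NMF. The 6 endothelial markers summed to 444 CPM in sCAF, 49.9 CPM in pCAF and 2079 CPM in NMF. The 5 pericyte markers summed to 102 CPM, 92.2 CPM and 279 CPM in the same order. In the second table those epithelial markers summed to 6074 CPM in GFP+ EpCAM+, 3061 CPM in GFP+ EpCAM-, 9663 CPM in GFP- EpCAM+ and 992 CPM in GFP- EpCAM-. The GFP- EpCAM- library also led in the sum of fibroblast markers, with 4099 CPM against 37.5 to 132 CPM in the others. Of these markers Pdgfra alone went the other way, with 1.55 CPM against 6.12 to 34.1 CPM. Pdpn had only 3 counts in each GFP- library. The GFP- EpCAM- library led as well in endothelial markers, with 7468 CPM against 32.2 to 160 CPM, and in pericyte markers, with 2865 CPM against 30.3 to 97.3 CPM. Its skeletal muscle markers summed to 733 CPM against 0.81 to 18.4 CPM, its leukocyte markers to 172 CPM against 1.92 to 53.9 CPM, and its Schwann cell markers to 142 CPM against 0 to 47.7 CPM. These differences in cell type run beside the Hox results below and their part in them was not tested. In bulk libraries, fewer cells of a type and less RNA per cell cannot be told apart.

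Promoter windows of 3 members are shown, none of them from Hoxc. Over the GFP and EpCAM sorts, each member had the most counts in its cluster among those with a window. Windows that overlapped annotated exons were not shown. Hoxa5 led sCAF and the GFP+ and GFP- EpCAM+ libraries, Hoxb4 was at 0 in both GFP+ libraries, and Hoxd8 led GFP- EpCAM-. Each window is the 250 bases before the RefSeq gene start in GRCm38.p6, 5′ to 3′ on the strand of the gene. A CCAAT box on either strand is in capitals. The windows lie at chr6:52204588-52204837 on the minus strand for Hoxa5, chr11:96318017-96318266 on the plus strand for Hoxb4 and chr2:74704365-74704614 on the plus strand for Hoxd8.
Hoxa5: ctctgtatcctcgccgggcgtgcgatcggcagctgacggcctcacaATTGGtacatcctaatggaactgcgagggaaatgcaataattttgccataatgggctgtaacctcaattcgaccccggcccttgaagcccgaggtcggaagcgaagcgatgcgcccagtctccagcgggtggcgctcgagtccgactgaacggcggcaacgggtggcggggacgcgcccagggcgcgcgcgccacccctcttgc
Hoxb4: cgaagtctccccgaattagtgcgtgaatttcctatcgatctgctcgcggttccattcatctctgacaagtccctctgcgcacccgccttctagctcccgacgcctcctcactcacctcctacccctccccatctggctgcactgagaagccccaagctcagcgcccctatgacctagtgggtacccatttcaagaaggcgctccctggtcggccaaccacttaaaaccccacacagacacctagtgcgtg
Hoxd8: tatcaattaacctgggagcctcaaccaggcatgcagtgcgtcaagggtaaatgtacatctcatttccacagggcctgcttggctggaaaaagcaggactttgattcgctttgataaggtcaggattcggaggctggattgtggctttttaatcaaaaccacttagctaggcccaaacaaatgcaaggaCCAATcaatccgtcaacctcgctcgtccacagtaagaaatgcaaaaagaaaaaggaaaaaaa
The Hoxa5 window had 63.6% G and C and 28 CG pairs. The Hoxb4 window had 58.0% and 14 pairs, and the Hoxd8 window 44.4% and 6 pairs. Windows were found for 22 of the 39 members, 24 windows in all. On both strands, CCAAT was present in 14 of these 24, against 33.85% of 32851 windows of all genes. The TATA box letters TATAAA were in 4 of the 24, against 12.37% of all windows. A site for a Hox protein with its partner Pbx, searched as TGATNNAT, was in 4 of the 24, against 7.68% of all windows. Neither of these last motifs was in the windows shown. These are matches of letters and were not tested as sites.

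In the sorts of 4T1-GFP tumours, Hoxb, Hoxc and Hoxd members together had 21 counts in GFP+ EpCAM+, 11 in GFP+ EpCAM-, 48 in GFP- EpCAM+ and 868 in GFP- EpCAM-. Hoxa members had 619, 503, 357 and 244 counts in the same libraries. All 26 members had at least 1 count in GFP- EpCAM- and 24 had over 3. Over 3 counts were seen for 8 members in GFP+ EpCAM+, 7 in GFP+ EpCAM- and 11 in GFP- EpCAM+. Summed over the 26 members, the level was 258 CPM in GFP+ EpCAM+, 247 CPM in GFP+ EpCAM-, 248 CPM in GFP- EpCAM+ and 864 CPM in GFP- EpCAM-.
Hoxa5 had the most counts of any member over these 4 libraries, 369 in GFP+ EpCAM+, 271 in GFP+ EpCAM-, 239 in GFP- EpCAM+ and 71 in GFP- EpCAM-. In the same order, Hoxa10 had 62, 55, 31 and 9 counts, Hoxa2 had 59, 48, 17 and 9, and Hoxa3 had 50, 54, 20 and 19. Hoxa7 had 67, 66, 34 and 103. In CPM, Hoxa7 was highest in GFP- EpCAM- and the other 4 of these members were lowest there, except Hoxa3, which was lowest in GFP- EpCAM+. Hoxa4 had 5, 4, 2 and 13 counts, and Hoxa9 had 2, 2, 8 and 18.

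**Figure D1:**
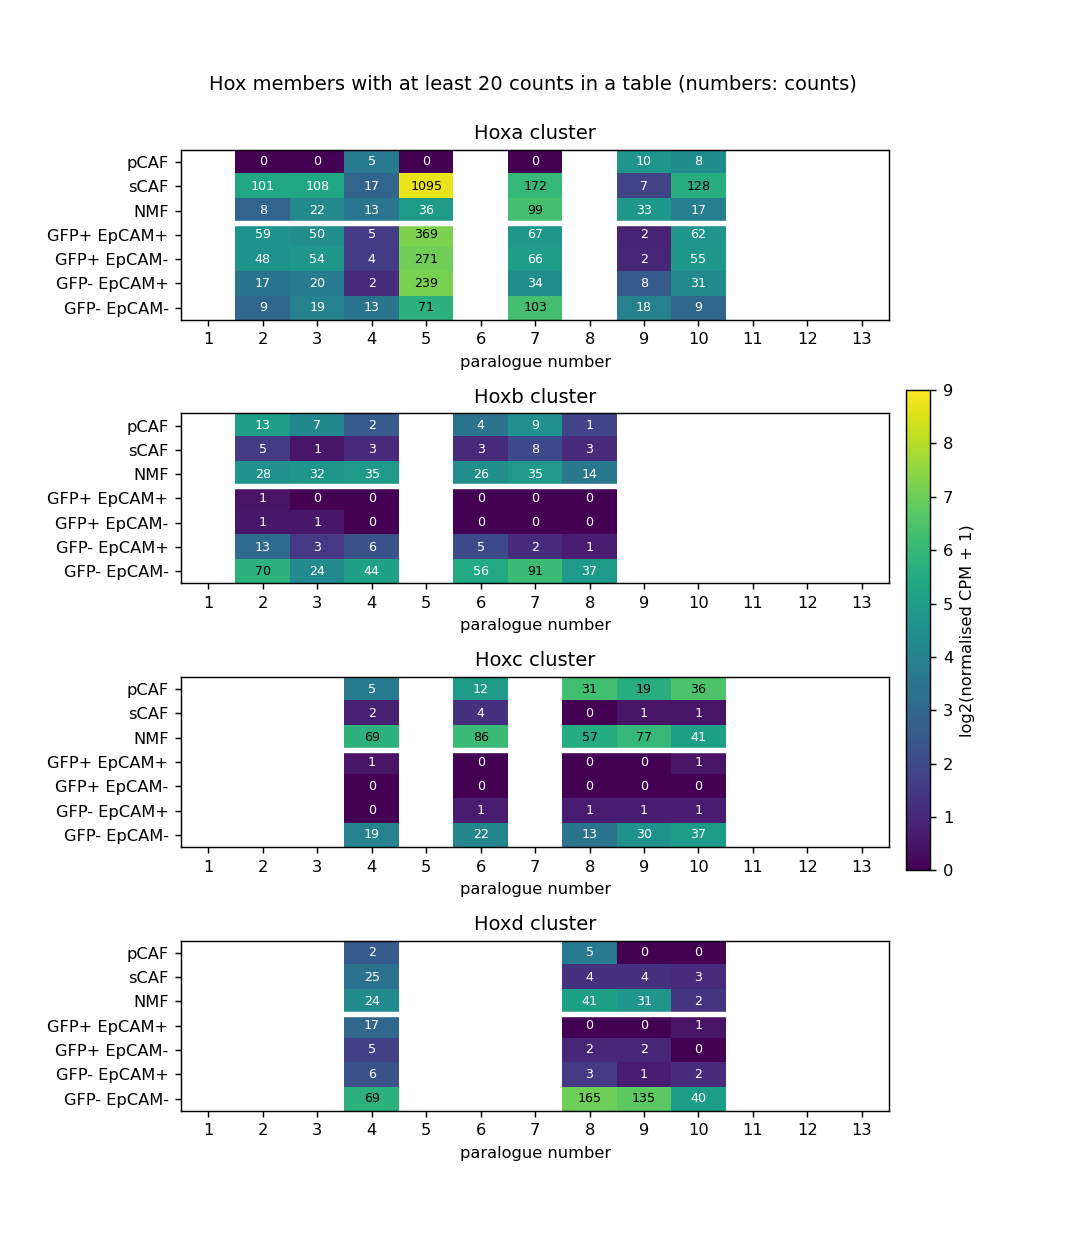
Counts (numbers) and log2 normalised CPM + 1 (colour) of members with at least 20 counts over the libraries of a table, by paralogue number across and library down, 1 panel a cluster, with white where none is shown. Hoxa5 has 239 to 369 counts in the GFP+ and GFP- EpCAM+ libraries and 1095 in sCAF. Hoxb, Hoxc and Hoxd fill mainly in GFP- EpCAM-, NMF and, for Hoxb and Hoxc, pCAF.

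GFP+ EpCAM- cells, which carry the label of the injected line, were set against GFP- EpCAM- cells. Of 26 members, 24 had over 3 counts in either library, and the level was higher in GFP+ for 4 and lower for 20. Of the 19 with at least 20 counts, 14 were called lower and 0 higher, where 14.1% and 5.55% of the 9551 genes tested were called (19.6% in either direction). Their median log2 ratio was -4.32, with bounds included, against 0.03 over all genes tested. A member passes the count filter through the library where it is high, so these counts describe the members and support nothing by themselves.

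All 6 Hoxb members with enough counts were lower. Hoxb7, a central member also studied in breast cancer cells, had 0 counts in GFP+ EpCAM- against 91 in GFP- EpCAM-, so it was at least 49.0-fold lower. Hoxb2, a hindbrain patterning gene, had 1 count in GFP+ EpCAM- against 70 in GFP- EpCAM-, 113-fold lower (95% interval 19.7 to 4533). Hoxb6 had 0 and 56 counts in the same libraries and was at least 30.2-fold lower. The intervals of these 3 members lay far beyond 2-fold.
Hoxb4, known for expanding blood stem cells, had 0 counts in GFP+ EpCAM- against 44 in GFP- EpCAM-, at least 23.7-fold lower. Hoxb8 had 0 and 37 counts in the same libraries, at least 19.9-fold lower. Hoxb3 had 1 and 24 counts in them, 38.8-fold lower (6.33 to 1596). Hoxb5 with 0 and 11 counts and Hoxb9 with 0 and 4 were under the filter. Summed, the 8 Hoxb members gave 2 counts in GFP+ EpCAM- against 337 in GFP- EpCAM-.

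Hoxc gave no count at all in GFP+ EpCAM-, against 122 counts in GFP- EpCAM-, at least 65.7-fold lower as a sum. Hoxc10, a lumbar and hindlimb gene, had 0 counts in GFP+ EpCAM- against 37 in GFP- EpCAM-, at least 19.9-fold lower. Hoxc9, a thoracic gene, had 0 and 30 counts and was at least 16.2-fold lower. Hoxc6 had 0 and 22 counts and was at least 11.9-fold lower. The remaining Hoxc members were at 0 in GFP+ EpCAM-, while GFP- EpCAM- gave 19 counts for Hoxc4, 13 for Hoxc8 and 1 for Hoxc5.

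Hoxd8 and Hoxd9 had the highest counts of any member in GFP- EpCAM-. Hoxd8 had 2 counts in GFP+ EpCAM- against 165 in GFP- EpCAM-, 133-fold lower (36.3 to 1111). Hoxd9, a gene of the limb and the mammary gland, had 2 and 135 counts and was 109-fold lower (29.6 to 910). Hoxd10 had 0 and 40 counts and was at least 21.6-fold lower. Hoxd4 kept some counts in both, 5 in GFP+ EpCAM- and 69 in GFP- EpCAM-, 22.3-fold lower (9.11 to 70.9).

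The Hoxa members split. Hoxa9, known as a partner of Meis1 in leukaemia, followed the other clusters with 2 counts in GFP+ EpCAM- against 18 in GFP- EpCAM-, 14.6-fold lower (3.48 to 129). Hoxa5, a patterning gene of the lung and the neck skeleton, had 271 counts in GFP+ EpCAM- against 71 in GFP- EpCAM-, a ratio of 2.36 (1.81 to 3.11). Its interval excluded 1 and reached inside 2-fold, so it was not called. The same held for Hoxa10, a gene of the uterus and lumbar spine, with 55 and 9 counts and a ratio of 3.78 (1.85 to 8.70), which was called with total counts as the scale.
Hoxa2, a gene of the second pharyngeal arch, had 48 counts in GFP+ EpCAM- against 9 in GFP- EpCAM-, a ratio of 3.30 (1.60 to 7.65). Hoxa3, a gene of the thymus and parathyroid, had 54 and 19 counts and a ratio of 1.76 (1.03 to 3.14). Hoxa7 went the other way, with 66 and 103 counts and a ratio of 0.396 (0.286 to 0.545). None of these 3 passed the 2-fold rule, though every interval excluded 1. Hoxa4 was low, with 4 and 13 counts. Summed, the 8 Hoxa members gave 242 CPM in GFP+ EpCAM- and 190 CPM in GFP- EpCAM-, a ratio of 1.28 (1.09 to 1.49), while Hoxb, Hoxc and Hoxd together gave 5.29 CPM and 674 CPM, 128-fold lower (70.9 to 257).

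EpCAM+ cells were set against EpCAM- cells within GFP-, a comparison that shares the GFP- EpCAM- library with the one above. Of 19 members with at least 20 counts, 14 were called lower and 1 higher, where 12.7% and 7.33% of the 9518 genes tested were called (20.0% in either direction). Hoxa5 was the 1 called higher, with 239 counts in GFP- EpCAM+ against 71 in GFP- EpCAM-, a ratio of 2.65 (2.03 to 3.51). That call ended with DESeq2 size factors, at a ratio of 2.54 (1.94 to 3.36), and with thinning to equal depth. Hoxa7 was called lower, with 34 and 103 counts and a ratio of 0.260 (0.171 to 0.386). The other 13 called lower were every Hoxb, Hoxc and Hoxd member with enough counts. Hoxa2, Hoxa3, Hoxa9 and Hoxa10 were not called, with ratios of 1.49, 0.829, 0.350 and 2.71.
The Hoxb sum was 32 counts in GFP- EpCAM+ against 337 in GFP- EpCAM-. Hoxb2 had 13 counts in GFP- EpCAM+ against 70 in GFP- EpCAM-, 6.84-fold lower (3.75 to 13.5). Hoxb4 had 6 and 44 counts, 9.31-fold lower (3.95 to 26.7), and Hoxb6 had 5 and 56, 14.2-fold lower (5.74 to 45.5). Hoxb3 had 3 and 24 counts, 10.2-fold lower (3.08 to 52.7). These Hoxb members kept a few counts in GFP- EpCAM+ cells.
Hoxb7 had 2 counts in GFP- EpCAM+ against 91 in GFP- EpCAM-, 57.8-fold lower (15.5 to 484). Hoxd8 had 3 and 165 counts, 69.8-fold lower (23.5 to 342), and Hoxd9 had 1 and 135, 171-fold lower (30.2 to 6820). Hoxd4 had 6 and 69 counts, 14.6-fold lower (6.38 to 41.2), and Hoxd10 had 2 and 40, 25.4-fold lower (6.58 to 217). The largest count among these Hoxd members in GFP- EpCAM+ cells was the 6 of Hoxd4.
Hoxb8, Hoxc6, Hoxc9 and Hoxc10 each had 1 count in GFP- EpCAM+, against 37, 22, 30 and 37 in GFP- EpCAM-. Their ratios were between 27.9-fold and 47.0-fold lower, with intervals that all began above 4-fold.

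**Figure D2:**
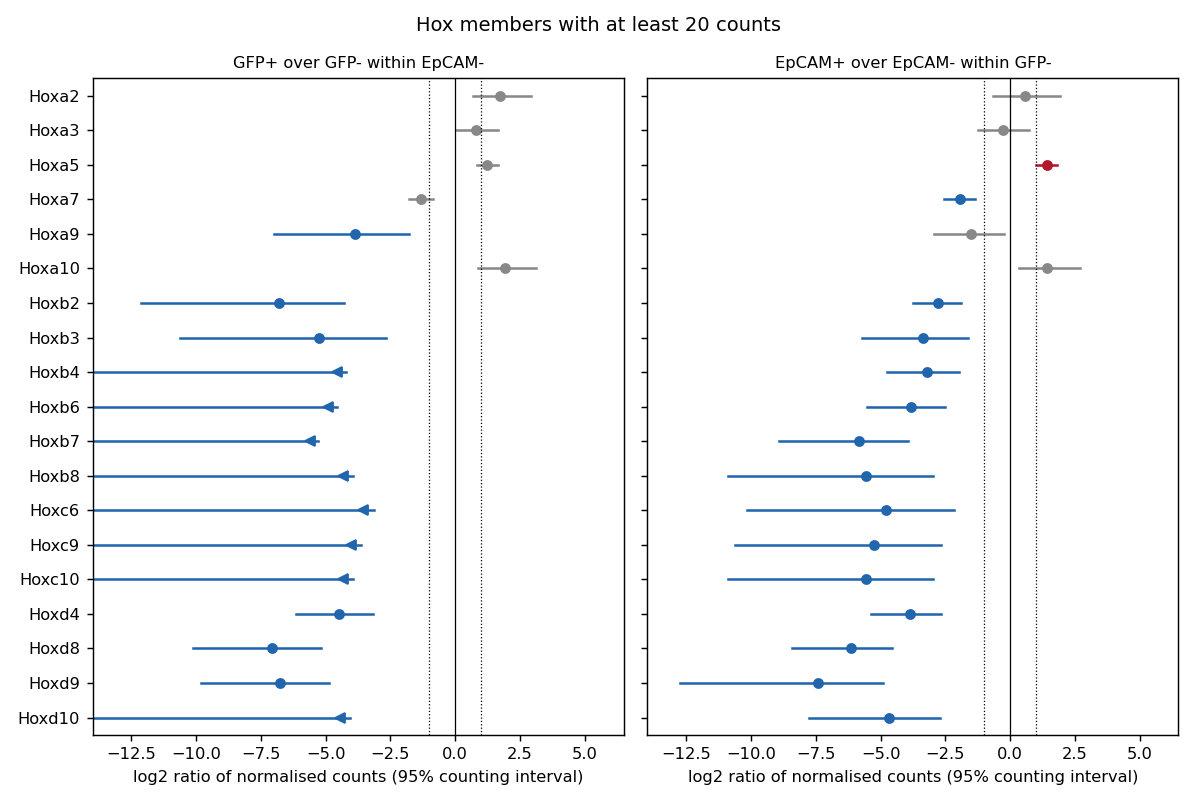
Log2 ratio (point) and exact 95% counting interval (line) of each member with at least 20 counts, for GFP+ over GFP- within EpCAM- on the left and EpCAM+ over EpCAM- within GFP- on the right, with blue for called lower, red for called higher, grey for neither, triangles for bounds and dotted lines at 2-fold. The Hoxb, Hoxc and Hoxd members lie left of the dotted line in both panels, and the Hoxa members scatter around it.

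Within GFP+ cells no member was called between EpCAM+ and EpCAM-, among 6 with at least 20 counts, where 0.736% of the 9100 genes tested were called higher, 0.396% lower and 1.13% in either direction. Hoxa5 had 369 counts in GFP+ EpCAM+ against 271 in GFP+ EpCAM-, a ratio of 1.14 (0.973 to 1.34). Hoxa2, Hoxa3, Hoxa7 and Hoxa10 had between 50 and 67 counts in GFP+ EpCAM+ and between 48 and 66 in GFP+ EpCAM-, with ratios of 0.776 to 1.03. Each of these 4 intervals included 1. Hoxd4 had 17 and 5 counts in them, a ratio of 2.85 (1.01 to 9.88). The Hoxb and Hoxc members summed to 1 and 2 counts in GFP+ EpCAM+, and to 2 and 0 in GFP+ EpCAM-.

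Within EpCAM+ cells, GFP+ over GFP-, no member of 6 was called either, where 0.216% of the 9241 genes tested were called higher, 4.18% lower and 4.39% in either direction. Hoxa5 stood at 149 CPM in GFP+ EpCAM+ and 146 CPM in GFP- EpCAM+, a ratio of 1.02 (0.862 to 1.20). Hoxa2 had the highest ratio, 2.29 (1.31 to 4.18), from 59 and 17 counts. The ratios of Hoxa3, Hoxa7 and Hoxa10 were 1.65, 1.30 and 1.32, and that of Hoxd4 was 1.87 (0.702 to 5.78). As sums, Hoxb, Hoxc and Hoxd together gave 21 counts in GFP+ EpCAM+ against 48 in GFP- EpCAM+, 3.47-fold lower (2.04 to 6.10). Hoxb alone gave 1 and 32 counts there, 48.6-fold lower (8.12 to 1979). Hoxd gave 18 and 12 counts, 7.25 CPM against 7.34 CPM, a ratio of 0.988 (0.450 to 2.25), and Hoxc gave 2 and 4 counts.

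Podoplanin-positive fibroblasts (pCAF) were next set against NMF. Of 39 members, 24 had over 3 counts in either library, and the level was higher in pCAF for 5 and lower for 19. Of 18 with at least 20 counts, 3 were called lower and 0 higher, where 7.91% and 7.58% of the 8129 genes tested were called (15.5% in either direction). Their median log2 ratio was -1.15, bounds included, against -0.20 over all genes tested. The summed level was 436 CPM in pCAF and 700 CPM in NMF, a ratio of 0.623 (0.527 to 0.734), inside 2-fold.
Hoxa7 had 0 counts in pCAF and 99 in NMF, and was at least 10.7-fold lower. Hoxa5 had 0 and 36 counts and was at least 3.91-fold lower. Hoxd9 had 0 and 31 counts and was at least 3.37-fold lower. All 3 rest on a count of 0 in the shallowest library, which allows up to 7.48 CPM. With total counts as the scale 5 members were called lower, and with the libraries thinned to equal depth 1.
Hoxa3, with 0 and 22 counts, gave a bound of 2.39-fold lower and was not called once the counting error of NMF was taken in. Hoxc10 had 36 counts in pCAF and 41 in NMF, 89.7 CPM against 33.3 CPM, a ratio of 2.70 (1.67 to 4.32). Hoxc8, known for its part in the start of mammary gland formation, had 31 and 57 counts and a ratio of 1.67 (1.04 to 2.63). Both intervals excluded 1 and reached inside 2-fold.
Hoxc9 had 19 counts in pCAF and 77 in NMF, a ratio of 0.758 (0.433 to 1.26), and its interval included 1. Hoxc6 had 12 and 86 counts and a ratio of 0.428 (0.213 to 0.788). Hoxc4 had 5 and 69 counts and a ratio of 0.223 (0.0700 to 0.545). Within Hoxc, the members numbered 4 and 6 thus lay lower in pCAF than in NMF, and those numbered 8 and 10 higher, with none called.
Of Hoxb, Hoxb2 had 13 counts in pCAF and 28 in NMF, Hoxb7 had 9 and 35, Hoxb3 had 7 and 32, and Hoxb6 had 4 and 26. Their ratios lay between 0.472 and 1.43 and every interval included 1. Hoxb4 had 2 and 35 counts and a ratio of 0.175 (0.0204 to 0.683). Hoxa9 had 10 and 33 counts and a ratio of 0.930 (0.409 to 1.93), and Hoxa10 had 8 and 17 and a ratio of 1.45 (0.540 to 3.53). For Hoxd8 the counts were 5 in pCAF and 41 in NMF, a ratio of 0.374 (0.115 to 0.947), and for Hoxd4 they were 2 and 24. The summed Hoxd level was called lower, with 8 counts in pCAF and 102 in NMF, 4.15-fold lower (2.03 to 9.88), a call that DESeq2 size factors and thinning to equal depth ended.
Markers of other cells also differed between these libraries. The 6 endothelial markers summed to 49.9 CPM in pCAF, with Pecam1, Cdh5 and Emcn at 0, and to 2079 CPM in NMF. The 3 Schwann cell markers were at 0 in pCAF and summed to 780 CPM in NMF, and the 3 skeletal muscle markers summed to 39.9 CPM and 122 CPM. Their part in the Hox differences was not tested.

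The library labelled sCAF was set against the same NMF library. Of 20 members with at least 20 counts, 13 were called lower and 3 higher, where 17.3% and 15.9% of the 9815 genes tested were called (33.2% in either direction). Their median log2 ratio was -3.83, with bounds included, against 0.17 over all genes tested. Hoxa5 had 1095 counts in sCAF and 36 in NMF, 413 CPM against 29.2 CPM, a ratio of 14.1 (10.1 to 20.3). Hoxa2 had 101 and 8 counts, a ratio of 5.86 (2.86 to 13.9), and Hoxa10 had 128 and 17, a ratio of 3.49 (2.10 to 6.18). These were the 3 called higher, and the call of Hoxa10 ended with DESeq2 size factors and with thinning to equal depth.
Hoxa3, with 108 counts in sCAF and 22 in NMF, had a ratio of 2.28 (1.43 to 3.79) and was not called. Hoxa7 had 172 and 99 counts, 64.8 CPM against 80.4 CPM, a ratio of 0.806 (0.626 to 1.04) that became 1.07 with libraries thinned to equal depth. Hoxa4 had 17 and 13 counts and a ratio of 0.607 (0.278 to 1.36). Hoxa9 was the Hoxa member called lower, with 7 and 33 counts, 10.2-fold lower (4.42 to 27.2).
Every Hoxb and Hoxc member with enough counts was called lower in sCAF. Hoxc8 had 0 counts in sCAF and 57 in NMF and was at least 40.9-fold lower. Hoxc9 had 1 and 77 counts, 166-fold lower (28.9 to 6637), and Hoxc6 had 4 and 86, 46.3-fold lower (17.5 to 174). Hoxc4 had 2 and 69 counts, 74.3-fold lower (19.8 to 626), and Hoxc10 had 1 and 41, 88.3-fold lower (15.0 to 3573). The sum over Hoxc was 8 counts in sCAF and 333 in NMF. With the libraries thinned to equal depth, 4 members rather than 13 were called lower.
Hoxb3 had 1 count in sCAF and 32 in NMF, 69.0-fold lower (11.5 to 2808). Hoxb4 had 3 and 35 counts, 25.1-fold lower (7.92 to 128), and Hoxb6 had 3 and 26, 18.7-fold lower (5.72 to 96.4). Hoxb2 had 5 and 28 counts, 12.1-fold lower (4.60 to 40.0), and Hoxb7 had 8 and 35, 9.43-fold lower (4.30 to 23.5). Of Hoxd, Hoxd8 had 4 and 41 counts, 22.1-fold lower (8.00 to 84.9), and Hoxd9 had 4 and 31, 16.7-fold lower (5.90 to 65.1). Hoxd4 had 25 counts in sCAF and 24 in NMF, a ratio of 0.483 (0.265 to 0.884), and was not called.
The summed Hox level hid this split, at 646 CPM in sCAF and 700 CPM in NMF, a ratio of 0.923 (0.850 to 1.00). Hoxa5 alone was 63.8% of the Hox counts of sCAF, and without it the sum was called lower, with a ratio of 0.348 (0.313 to 0.387). Markers of other cells also differed between sCAF and NMF. The endothelial markers summed to 444 CPM in sCAF and 2079 CPM in NMF, and the Schwann cell markers to 1.88 CPM and 780 CPM. The skeletal muscle markers were at 0 in sCAF and summed to 122 CPM in NMF. The part of cell types in the Hox differences was not tested.

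**Figure D3:**
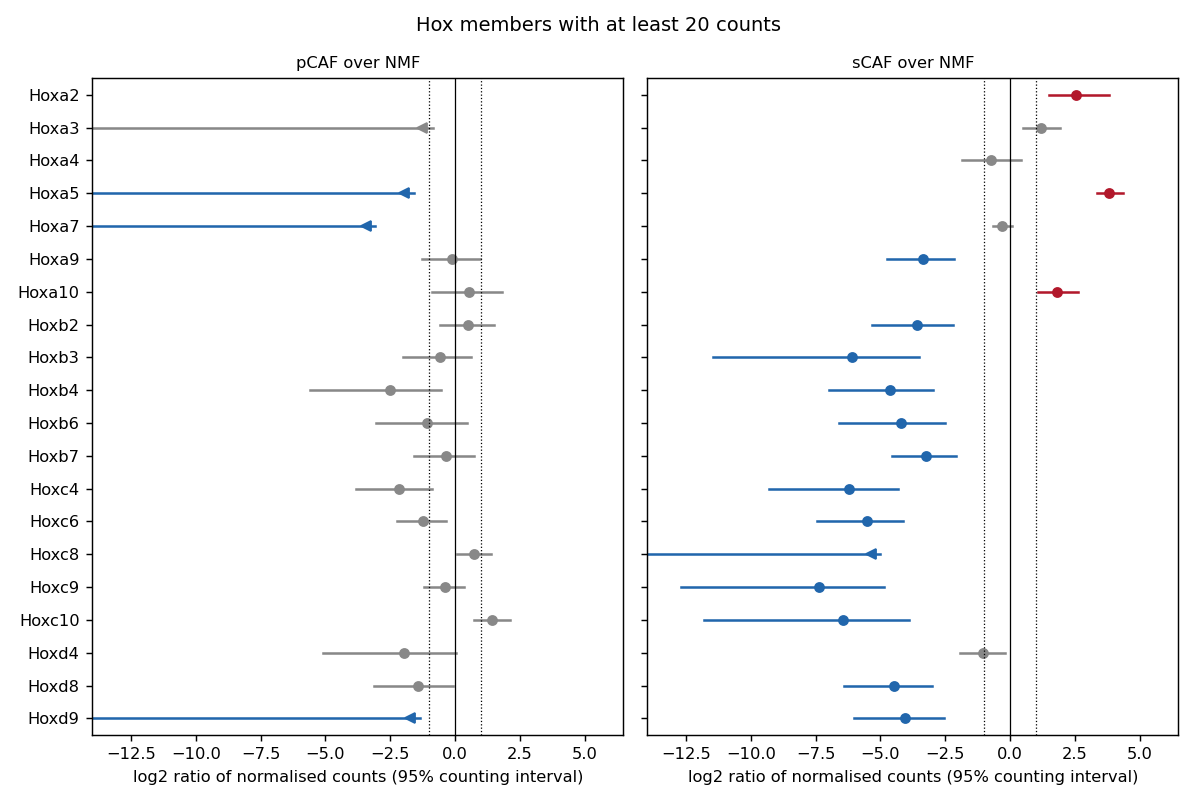
Log2 ratio (point) and exact 95% counting interval (line) of each member with at least 20 counts, for pCAF over NMF on the left and sCAF over NMF on the right, with blue for called lower, red for called higher, grey for neither, triangles for bounds and dotted lines at 2-fold. In sCAF, 3 Hoxa members lie beyond 2-fold on the right and 13 members on the left, while 15 of 18 members in pCAF are grey.

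Between pCAF and sCAF, 10 members had at least 20 counts, and 3 were called higher and 4 lower, where 11.5% and 11.2% of the 8915 genes tested were called (22.7% in either direction). Hoxc10 had 36 counts in pCAF and 1 in sCAF, a ratio of 238 (40.1 to 9666), and Hoxc9 had 19 and 1, a ratio of 126 (20.0 to 5223). Hoxc8 had 31 and 0 counts and was at least 68.4-fold higher. Hoxa5 had 0 counts in pCAF and 1095 in sCAF, at least 55.2-fold lower. Hoxa2, Hoxa3 and Hoxa7 also had 0 counts in pCAF, against 101, 108 and 172 in sCAF, with bounds of 5.09-fold, 5.44-fold and 8.67-fold lower. Hoxa4, with 5 and 17 counts, and Hoxd4, with 2 and 25, were not called. Hoxa10 was not called either, with 8 counts in pCAF and 128 in sCAF, a ratio of 0.414 (0.175 to 0.840). No Hoxb member had enough counts, but the Hoxb sum was called, 6.80-fold higher in pCAF (4.18 to 11.1), from 37 and 36 counts. The Hoxc sum was 85.2-fold higher (41.7 to 203) and the Hoxa sum 9.15-fold lower (6.26 to 13.9), both called. The Hoxd sum, from 8 and 37 counts, was not called, at 1.43 (0.575 to 3.12). Summed over all members the ratio was 0.675 (0.575 to 0.789) and was not called.

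The make-up of a library's Hox counts needs no scaling between tables, so it is listed here for all 7 libraries. The tables differ in tumour line, sort and genes listed, so table and cell type cannot be told apart across them. Intervals of the shares cover counting error only. Over the 26 members listed in both tables, Hoxa took 14.1% of the Hox counts of pCAF (exact 95% interval 9.26 to 20.3) and 27.0% of those of NMF (24.1 to 30.2). It took 21.9% in GFP- EpCAM- (19.5 to 24.5). The share was 95.3% in sCAF (94.2 to 96.3), 96.7% in GFP+ EpCAM+ (95.03 to 98.0), 97.9% in GFP+ EpCAM- (96.2 to 98.9) and 88.1% in GFP- EpCAM+ (84.6 to 91.1). Hoxa was thus between 88.1% and 97.9% of the Hox counts in 4 libraries and between 14.1% and 27.0% in the other 3.
Outside pCAF, most of the Hoxa share was 5 members, Hoxa2, Hoxa3, Hoxa5, Hoxa7 and Hoxa10, a set chosen after its values were seen. They were 93.5% of all listed Hox counts in sCAF, 94.8% in GFP+ EpCAM+, 96.1% in GFP+ EpCAM- and 84.2% in GFP- EpCAM+. In pCAF they were 4.57%, with 8 of 27 Hoxa counts, in NMF 21.1% and in GFP- EpCAM- 19.0%. Hoxa5 was the leading member of the 4 libraries with the high share, at 52.7% to 63.8% of Hox counts. The leading member was Hoxc10 in pCAF (20.6%), Hoxa7 in NMF (11.5%) and Hoxd8 in GFP- EpCAM- (14.8%).
The libraries with a low Hoxa share differed among themselves. Hoxc took 60.6% in pCAF (52.8 to 68.0), 39.0% in NMF (35.7 to 42.4) and 11.0% in GFP- EpCAM- (9.19 to 13.0). Hoxd took 4.12% in pCAF (1.67 to 8.30), 11.5% in NMF (9.42 to 13.8) and 36.8% in GFP- EpCAM- (33.9 to 39.7). Hoxb took 21.2% in pCAF (15.3 to 28.1), 22.5% in NMF (19.7 to 25.4) and 30.3% in GFP- EpCAM- (27.6 to 33.1). Intervals for Hoxc and for Hoxd did not overlap among the 3 libraries, while those for Hoxb overlapped between pCAF and each of the other 2.

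**Figure D4:**
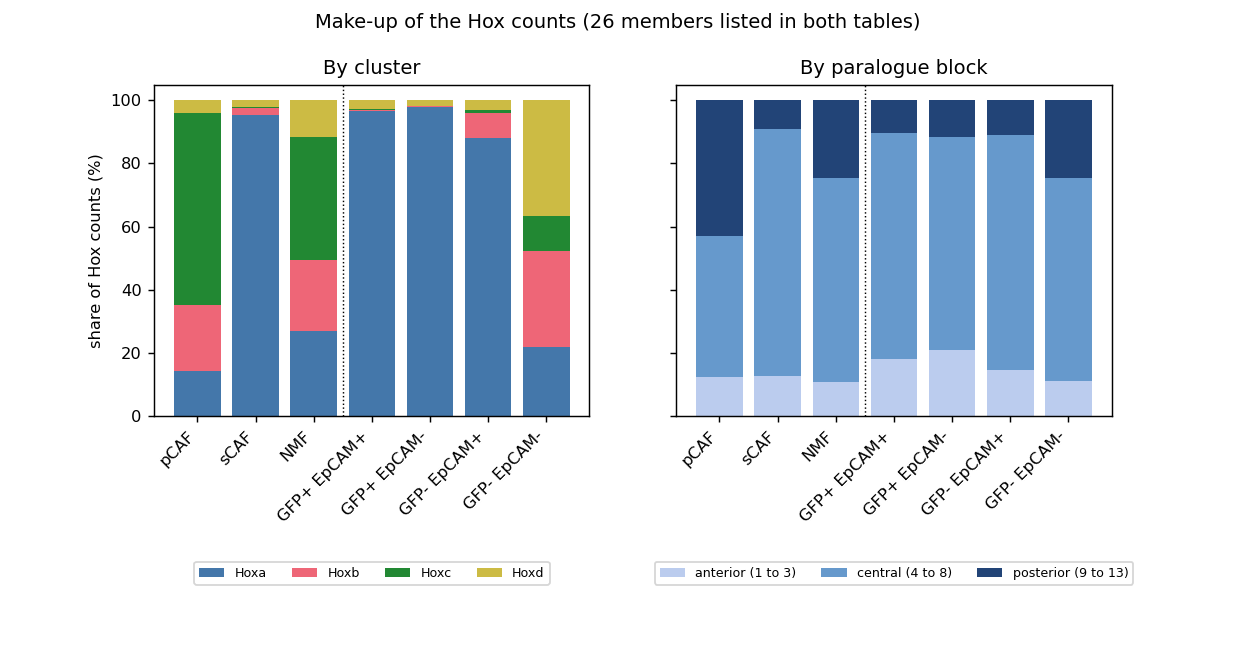
Stacked bars of the share (%) of each library's Hox counts by cluster (left) and by paralogue block (right), over the 26 members listed in both tables, with a dotted line between the tables. Hoxa fills 88.1% to 97.9% of the bar in sCAF and the GFP+ and GFP- EpCAM+ libraries, and the posterior block is largest in pCAF at 42.9%.

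By paralogue number, the posterior block (9 to 13) took 42.9% of the Hox counts of pCAF (35.4 to 50.7) and 24.6% of those of NMF (21.7 to 27.6) over the shared members. The share was 24.6% in GFP- EpCAM- (22.0 to 27.2) and between 8.95% and 11.5% in the other 4 libraries. The central block (4 to 8) took 44.7% in pCAF, 64.5% in NMF and 64.3% in GFP- EpCAM-, against 67.7% to 78.4% in the others. The anterior block (1 to 3) took between 10.9% and 20.8% in all 7.
As levels, the posterior block stood at 187 CPM in pCAF and 171 CPM in NMF, a ratio of 1.09 (0.827 to 1.43) that fell below 1, to 0.947, with total counts as the scale. The central block stood at 192 CPM and 447 CPM, a ratio of 0.429 (0.334 to 0.545). Paralogue group 5 had 0 counts in pCAF and 52 in NMF, at least 5.64-fold lower, and group 7 had 9 and 134, 4.85-fold lower (2.48 to 10.8). Group 10 stood at 110 CPM in pCAF and 48.7 CPM in NMF, a ratio of 2.25 (1.49 to 3.38). Groups 5 and 7 were called and group 10 was not.
In sCAF, group 10 gave 132 counts, of which Hoxa10 was 128, and in NMF it gave 60, of which Hoxc10 was 41 and Hoxa10 was 17. The group's ratio was 1.02 (0.747 to 1.41), so a paralogue sum near 1 held different members. Likewise group 7 in GFP+ EpCAM- was Hoxa7 alone, with 66 counts, and in GFP- EpCAM- it was 103 of Hoxa7 and 91 of Hoxb7.
The members of the far posterior end had few counts or none. Hoxb13, Hoxc11, Hoxc12, Hoxc13, Hoxd11, Hoxd12 and Hoxd13 had 0 counts in all 3 libraries of the first table. Hoxd1, at the anterior end of its cluster, was at 0 in them too. Hoxa11 had 2 counts in pCAF, 0 in sCAF and 1 in NMF, and Hoxa13 had a single count, in sCAF. Other members under 20 counts in the first table, Hoxa6, Hoxb1, Hoxb5, Hoxb8, Hoxb9, Hoxc5, Hoxd3 and Hoxd10, had at most 14 counts in a library.

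Some members overlap other genes, which may affect their counts. For genes of the opposite strand this depends on the handling of strand, which was not stated. The overlaps below are over all exon bases, not over the 3' ends that give the tags, and their effect on counts was not tested. In the annotation 9 of the 39 members share exon bases with a gene of the same strand and 10 with one of the opposite strand. Hoxd3 shares 62.4% and Hoxd4 52.3% of its exon bases with genes of the same strand. Hoxb3 shares 52.9% with the antisense gene Hoxb3os, Hoxb2 27.3%, Hoxa3 25.4% and Hoxa7 20.4% with opposite genes. Hoxa5, Hoxb4 and Hoxb7 share none.

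Among non-coding RNAs of the clusters, Hotairm1, which lies in the Hoxa cluster and is known from myeloid cells, was the best counted. It had 16 counts in pCAF, 215 in sCAF and 22 in NMF, and the ratio of sCAF over NMF was 4.54 (2.92 to 7.39). In the second table it had 274 counts in GFP+ EpCAM+, 175 in GFP+ EpCAM-, 184 in GFP- EpCAM+ and 100 in GFP- EpCAM-, and none of the 4 comparisons was called. Of 18 non-coding RNAs on the list, 14 were listed in the first table and 3 in the second. Only 1 or 2 of them had at least 20 counts in a comparison, so the rest could not be called. In sCAF over NMF 1 of 2, Hotairm1, was called higher and 0 lower, against 15.9% and 17.3% of all genes. No other call was made.
Genes that flank the clusters were also listed, 15 of 17 in the first table and 12 in the second. In sCAF over NMF 3 of 9 with enough counts were called higher and 0 lower, against 15.9% and 17.3% of all genes. Skap2, an adaptor gene beside the Hoxa cluster, had 587 counts in sCAF and 22 in NMF, a ratio of 12.4 (8.10 to 19.9), and Snx10, farther out on that side, had 192 and 17. Mtx2, near Hoxd, had 328 and 53. In pCAF over NMF none of 7 was called, against 15.5% of all genes. In the GFP sorts 2 of 10 with enough counts, Skap1 and Snx11, on the Hoxb side, were called lower in GFP+ EpCAM- and in GFP- EpCAM+ relative to GFP- EpCAM-, where 14.1% and 12.7% of all genes were. Skap1 had 2, 3 and 25 counts in those libraries, and Snx11 had 31, 22 and 91.

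A list of 12 genes held TALE homeobox genes, the family of the Hox partners Pbx and Meis, and Pbxip1, which is not a homeobox gene. Of these 12, 9 had enough counts in each comparison with NMF. Pknox2 was called higher in pCAF, with 25 counts against 14 in NMF, a ratio of 5.48 (2.74 to 11.4). Tgif1 and Tgif2, TALE repressors, were called higher in sCAF, with 695 and 121 counts against 24 and 9 in NMF. So 1 and 2 of 9 were called higher and 0 lower, where 7.58% and 15.9% of all genes were called higher in these comparisons. Meis1 and Meis3, the Meis genes with enough counts, were called in none of the 7 comparisons.
Another list, of 23 chromatin regulators, held mainly Polycomb and trithorax genes, which keep Hox genes silent or active. In pCAF over NMF, 1 was called higher and 4 lower among 20, against 7.58% and 7.91% of all genes. Kmt2a, the trithorax methyltransferase MLL1, had 3 counts in pCAF and 65 in NMF, 7.06-fold lower (2.31 to 35.1). Cbx7, Pcgf2 and Ezh1 were also lower and Rnf2 was higher. In sCAF over NMF, 2 were called higher and 3 lower among 21, against 15.9% and 17.3% of all genes. Ezh2, the Polycomb methyltransferase, had 152 counts in sCAF and 6 in NMF, a ratio of 11.8 (5.28 to 32.5). Among the GFP and EpCAM sorts, 3 of 23 were called lower in GFP+ EpCAM- against GFP- EpCAM-, namely Kdm6b, Kdm6a and Jarid2, and none was higher, against 14.1% and 5.55% of all genes.

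Homeobox genes outside the clusters were counted in the same way. Of 46 listed genes, 1 was called higher and 2 lower among 19 in pCAF over NMF, against 7.58% and 7.91% of all genes. In sCAF over NMF, 2 were called higher and 11 lower among 23, against 15.9% and 17.3%. Prrx1, a mesenchymal gene of limb and fibroblasts, had 132 counts in pCAF, 2 in sCAF and 273 in NMF. Rhox5, an X-linked homeobox gene, had 4 counts in pCAF, 1247 in sCAF and 0 in NMF. Meox2, known from muscle and vessel cells, had 2, 0 and 88 counts in the same order of libraries.
In GFP+ EpCAM- over GFP- EpCAM-, 1 was called higher and 10 lower among 20 of these genes, against 5.55% and 14.1% of all genes. Prrx1 had 0 and 103 counts, Meox2 had 0 and 209, and Msx1 had 1 and 76, all called lower. Pitx1, a hindlimb gene, had 138 counts in GFP+ EpCAM- against 11 in GFP- EpCAM-, a ratio of 7.76 (4.20 to 15.9). Rhox5 was higher in EpCAM+ cells on both sides of the GFP split, with 885 counts in GFP+ EpCAM+ against 158 in GFP+ EpCAM-. On the GFP- side it had 428 in GFP- EpCAM+ against 54 in GFP- EpCAM-.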

How the data were processed

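The 7 libraries of 3' mRNA tags, 1 per group, are spread over 2 tables. The authors deposited counts: every value is whole and column totals differ. The submitters' processing notes list mm10 as genome build and DESeq2, HTSeq, STAR, cutadapt and bcl2fastq as tools, without versions. Per the labels a molecular identifier was read, but collapsing by it and the handling of strand are not stated there. Intervals cover counting error only, and only if each count is a separate molecule. If reads were not collapsed, the intervals are too narrow.

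Rows whose name had become a calendar date (27 and 21 rows, 0.152% to 0.198% of counts) were left out. Totals were 436051 (pCAF), 2590144 (sCAF), 1161172 (NMF), 2384264 (GFP+ EpCAM+), 1981977 (GFP+ EpCAM-), 1717278 (GFP- EpCAM+) and 1338608 (GFP- EpCAM-). Counts were scaled by TMM effective library sizes within a table (edgeR 4.0.16, R 4.3.3), and ratios were given exact 95% Clopper-Pearson intervals from the conditional binomial with scipy 1.17.1 in Python 3.11.15. No ratio was taken where both libraries had 3 counts or fewer, and none between tables. Background shares were computed over all genes of a table with at least 20 counts.

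Some genes are not reported here. Counts were given for members with at least 20 over a table, ratios for members called and up to 4 with the largest counts in each cluster, and of other lists up to 4 called members in each direction. The members and lists were chosen with earlier results of these data known. Alternatives were DESeq2 1.42.0 size factors, total counts, ribosomal protein genes left out, other count filters, a 4-fold rule, thinning to 436051 or 1338608 counts and other sets of members. Factors without sCAF, and all alternatives for cluster and block sums, were chosen after seeing the data.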

Additional observations from a re-analysis of the deposited data

Results flagged for a closer look

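Hoxd4 went opposite ways in the EpCAM contrast of the GFP sorts. EpCAM+ over EpCAM- gave a ratio of 2.85 (95% interval 1.01 to 9.88) within GFP+, from 17 and 5 counts, and of 0.0685 (0.0243 to 0.157) within GFP-, from 6 and 69 counts. Hoxd4 shares 52.3% of its exon bases with genes of the same strand.

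4 members went opposite ways in pCAF and sCAF against the NMF library that both share, with both intervals excluding 1. For Hoxa5 the ratio was at most 0.256 in pCAF, a bound from 0 counts, and 14.1 in sCAF. For Hoxa3 it was at most 0.419 in pCAF, also a bound, and 2.28 in sCAF. Hoxc8 had a ratio of 1.67 in pCAF and of at most 0.0244 in sCAF, a bound from 0 counts. Hoxc10 had a ratio of 2.70 in pCAF and of 0.0113 in sCAF, from 1 count. With 1 library a group none of these differences was tested, and the library labelled sCAF held few fibroblast marker counts.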

How the results depend on the processing

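No paired analysis was possible because each group was 1 library, and for the same reason no replicate could be left out. The cause of the changes below was not tested, except that a higher count minimum and thinning leave fewer members to test. All 49 shares stayed within their intervals over the members in both tables. The second table lists no other members, so its shares could not change. Of 529 alternative ratios of named members 512 kept their direction and call, 14 lost the call and 2 gained it. The remaining 1 reversed, Hoxa7 in sCAF over NMF at 1.07 after thinning. These 529 leave out members that fell under the count minimum in a setting, and another minimum cannot change a ratio or its call. The 512 therefore do not measure how well the calls hold.

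With total counts, members called lower in pCAF over NMF became 5 and called higher in GFP+ over GFP- within EpCAM- became 1. In pCAF over NMF the summed Hoxa ratio of 0.310 and the central ratio of 0.372 were then called, and the posterior ratio reversed to 0.947. The anterior ratio in sCAF over NMF reversed to 0.977, and in GFP+ over GFP- within EpCAM+ the Hoxd and posterior ratios reversed to 1.08 and 1.06. With DESeq2 size factors the calls ended for Hoxd in pCAF over NMF (0.253), central in pCAF over sCAF (0.420) and the 1 member higher in EpCAM+ over EpCAM- within GFP- (0 called). There the anterior ratio of 0.359 was called, and in sCAF over NMF the anterior ratio reversed to 0.960. Leaving out ribosomal protein genes reversed the central ratio in GFP+ over GFP- within EpCAM+, to 0.999.

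At a minimum of 100 counts, 0 members were called lower in pCAF over NMF and 0 in sCAF over NMF, 0 higher in pCAF over sCAF, 3 lower in EpCAM+ over EpCAM- within GFP- and 2 lower in GFP+ over GFP- within EpCAM-. With no filter, 9 were called higher in pCAF over sCAF and 1 lower in GFP+ over GFP- within EpCAM+. Under the 4-fold rule, 1 member stayed lower in pCAF over NMF, 1 higher in sCAF over NMF and 0 higher in EpCAM+ over EpCAM- within GFP-. That rule also ended the calls of these sums at their ratios: Hoxd in pCAF over NMF (0.241), Hoxa (3.27) and posterior (0.339) in sCAF over NMF, and central (0.379) and posterior (3.22) in pCAF over sCAF. It did so for all Hox (0.287) and central (0.332) in EpCAM+ over EpCAM- within GFP-, and for all Hox (0.286) and central (0.301) in GFP+ over GFP- within EpCAM-.

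After thinning, members called lower numbered 1 in pCAF over NMF and 4 in sCAF over NMF, and 0 were higher in EpCAM+ over EpCAM- within GFP-. Ratios then not called were Hoxd (0.296) in pCAF over NMF, Hoxd (0.277) and posterior (0.364) in sCAF over NMF, and central (0.446) in pCAF over sCAF. The Hoxc ratio in pCAF over NMF reversed to 1.02, and the anterior ratio in EpCAM+ over EpCAM- within GFP- was called at 0.339. Without Hoxa5 the Hox sum was called lower in sCAF over NMF (0.348) and reversed in pCAF over sCAF (1.87) and in EpCAM+ over EpCAM- within GFP+ (0.935). Over members in both tables the Hoxa sum in pCAF over NMF was called at 0.319. Factors without sCAF left the scale of pCAF relative to NMF as it was, so no call in pCAF over NMF could change.

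Over all genes tested, the median log2 ratio stood at -0.20 in pCAF over NMF, and -0.41 with total counts. In sCAF over NMF it was 0.17, in pCAF over sCAF -0.44 and -0.60 with total counts. In GFP+ over GFP- it was 0.03 within EpCAM- and 0.15 with total counts, and within EpCAM+ 0.01 and 0.14. In pCAF over NMF 616 genes were higher and 643 lower, and 499 and 839 with total counts. In pCAF, the shallowest library, 3 counts correspond to 7.48 CPM.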
